A study of Homo sapiens with 11 samples.

Results

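The 8 genes followed in LX-2 cells, a human hepatic stellate cell line, encode surface or secreted proteins that restrain immune cells: CD274, PDCD1LG2, PVR, NECTIN2, CD276, CD47, CD200 and LGALS9. They were taken by symbol from the deposited count file, which held all 8 members among 35303 genes. The members were proposed from these same libraries, by their CPM (each count scaled to the library's total) in the 3 treatment groups compared within replicate number. The treatment differences given for them are therefore descriptions of the values that chose them.

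LX-2 cells, labelled WT, had received HIV-1 Bal at a multiplicity of infection of 0.1 together with LTA at 1 ug/ml, the same virus dose alone, or PBS, and were collected after 24 h. HIV-1 Bal is a laboratory strain of the virus, and LTA (lipoteichoic acid, as the study's title on gram-positive microbial products implies) is a cell wall component of such bacteria. Each group had 3 RNA-seq libraries, and the labels number the replicates 1 to 3 as batches 1 to 3. No group received LTA without virus, so no value here separates LTA from LTA given with HIV-1. LX-2 is 1 cell line, and nothing says that the 3 libraries of a group came from separately started cultures, so the p-values measure the spread between these libraries.

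Checkpoint ligands bind inhibitory receptors on T cells, natural killer (NK) cells or macrophages and lower their activity. PD-L1 (CD274) and PD-L2 (PDCD1LG2) bind PD-1 on T cells. PVR and nectin-2 (NECTIN2) are shared by the activating receptor CD226 and the inhibitory receptor TIGIT. CD47 signals macrophages through SIRPA not to engulf the cell, and CD200 restrains myeloid cells through CD200R1. Hepatic stellate cells are known to display PD-L1 and can dampen T cell responses in the liver, and interferons are the best known inducers of PD-L1 and galectin-9 (LGALS9).

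The libraries held 50.6 to 90.6 M counts. Most stellate and myofibroblast markers were abundant, with COL1A1 (a collagen chain) at 794 to 1430 CPM and ACTA2 (smooth muscle actin) at 71.9 to 218 CPM in every library. DES, LRAT (a marker of quiescent cells) and HGF, from the same list, were near 0, with at most 0.259, 0.035 and 0.222 CPM. T cell genes were at or near 0: CD3D, CD3E and CD3G had at most 4, 4 and 1 counts in a library and CD2 had none. PTPRC, the pan-leukocyte marker, reached at most 0.875 CPM. The most abundant genes of the leukocyte list were CD4, at 1.36 to 18.2 CPM, and CD14, at 2.34 to 9.72 CPM. The leukocyte list of 18 genes, 17 of them with counts, summed to 11 to 34.4 CPM in HIV-1+LTA libraries, 8.68 to 25.1 CPM in HIV-1 libraries and 7 to 27.7 CPM in PBS libraries. Its part in the results below was not tested.

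The promoters of CD274, CD200 and LGALS9 are shown because these 3 genes differ in the interferon motif and include the 2 members with the widest range across libraries. RefSeq promoters (GRCh38.p14, 250 bases before to 50 bases after the start, given 5′ to 3′ along the gene) were matched for 7 of the 8 members; PDCD1LG2 was not matched. Capitals mark the paired half-site of an interferon-stimulated response element (ISRE), searched on both strands as GAAA, any 2 bases, GAAA.
CD274, chr9:5450292-5450591, plus strand: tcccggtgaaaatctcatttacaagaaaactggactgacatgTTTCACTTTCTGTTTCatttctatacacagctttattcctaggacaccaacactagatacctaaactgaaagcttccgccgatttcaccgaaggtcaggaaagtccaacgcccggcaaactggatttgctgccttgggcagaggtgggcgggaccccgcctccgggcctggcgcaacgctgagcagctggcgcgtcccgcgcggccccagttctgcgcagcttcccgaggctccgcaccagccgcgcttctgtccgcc
CD200, chr3:112332906-112333205, plus strand: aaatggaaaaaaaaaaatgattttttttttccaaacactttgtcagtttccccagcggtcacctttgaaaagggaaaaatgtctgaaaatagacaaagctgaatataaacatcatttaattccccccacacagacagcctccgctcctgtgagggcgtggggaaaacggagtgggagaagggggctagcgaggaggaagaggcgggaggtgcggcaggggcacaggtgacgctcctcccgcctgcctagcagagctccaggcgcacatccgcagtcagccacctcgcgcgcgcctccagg
LGALS9, chr17:27630938-27631237, plus strand: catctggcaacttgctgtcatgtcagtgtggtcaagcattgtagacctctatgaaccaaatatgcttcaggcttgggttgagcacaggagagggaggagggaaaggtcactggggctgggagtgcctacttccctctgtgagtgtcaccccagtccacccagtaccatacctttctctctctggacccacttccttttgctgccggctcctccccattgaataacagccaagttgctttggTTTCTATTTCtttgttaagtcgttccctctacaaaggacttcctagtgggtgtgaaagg

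Of the matched members, CD274 and LGALS9 were the 2 with an ISRE match. CD274 had a pair of overlapping matches on the minus strand, from -208 to -199 and from -202 to -193 relative to the start, and LGALS9 had one on the minus strand from -9 to 1. CD200 had no match to the ISRE, to NF-kB (GGG, any 5 bases, CC) or to TGANTCA (AP-1) in its window. Over all 35116 RefSeq promoters of this length, 3.57% held the ISRE letters, 58.7% NF-kB and 7.71% AP-1. A match describes letters in the window and is not a measured site.

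On the hg19 annotation (GENCODE v44lift37), several members lie on the same chromosome. CD274 (chr9:5450503-5470566) and PDCD1LG2 (chr9:5510531-5571282) are both on the plus strand, 60 kb apart by start site. PVR (chr19:45147098-45169430) and NECTIN2 (chr19:45349432-45392480) are both on the plus strand of chromosome 19. CD47 (chr3:107761938-107810709, minus strand) and CD200 (chr3:112051194-112081659, plus strand) are on chromosome 3, CD276 (chr15:73976307-74006855) and LGALS9 (chr17:25956824-25976586) on the plus strand of chromosomes 15 and 17. The end of PVR overlaps CEACAM19 on the same strand, which averaged 4.23 CPM. LGALS9 has near-identical copies, LGALS9B at 0.0173 to 0.15 CPM and LGALS9C at 0.06 to 0.716 CPM, so its count is uncertain. A protein-coding gene without a symbol also overlaps LGALS9 on the same strand (chr17:25956824-25967803) and is not among the counted genes.

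Per kilobase of exon, NECTIN2 and PVR stood highest and LGALS9 lowest. NECTIN2 averaged 14.2 ± 2.96 CPM per kb in HIV-1+LTA libraries, 13.9 ± 3.48 in HIV-1 libraries and 13.5 ± 3.95 in PBS libraries (SD, n = 3 each, here and below). PVR averaged 10.3 ± 2.25 CPM per kb in HIV-1+LTA libraries, 14.2 ± 5.11 in HIV-1 libraries and 13.7 ± 4.52 in PBS libraries. CD274 averaged 8.17 ± 3.3, 10.0 ± 4.23 and 10.9 ± 5.08 CPM per kb in HIV-1+LTA, HIV-1 and PBS libraries. The means of CD47, CD276 and PDCD1LG2 lay between 6.94 and 9.14 CPM per kb in every group. Among these 6 genes neighbours in the order differed by less than the larger of their SDs in PBS libraries. CD200 was lower, at 1.79 ± 0.353 CPM per kb in HIV-1+LTA libraries, 1.04 ± 0.365 in HIV-1 libraries and 1.11 ± 0.462 in PBS libraries. LGALS9 was barely detected, at 0.0859 ± 0.0455, 0.0502 ± 0.0352 and 0.0497 ± 0.0481 CPM per kb in HIV-1+LTA, HIV-1 and PBS libraries.

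**Figure D1:**
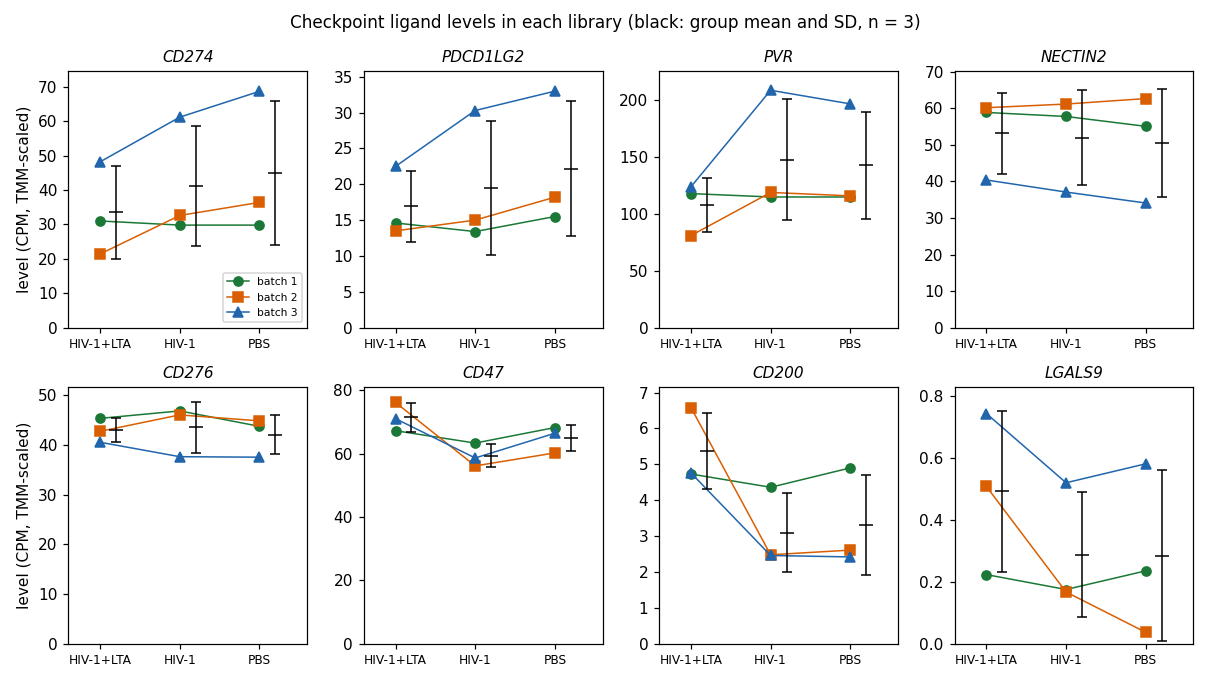
TMM-scaled CPM (y axis, linear from 0, a separate scale per gene) of each member in HIV-1+LTA, HIV-1 and PBS libraries, with a line joining the libraries of 1 batch and black bars for the group mean and SD (n = 3). Batch 3 lies apart for CD274, PDCD1LG2, PVR and NECTIN2, though for PVR only by a small margin in HIV-1+LTA libraries. In batches 2 and 3 the CD200 level of the HIV-1+LTA library is above both others.

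HIV-1+LTA against HIV-1 compares groups that differ by LTA, with virus in both. Levels below are TMM-scaled CPM in batches 1, 2 and 3 in that order. CD200 and CD47 were the members whose 3 HIV-1+LTA libraries all stood above the 3 HIV-1 libraries, and CD274, PDCD1LG2 and PVR were lower with LTA in batches 2 and 3 and not in batch 1. By edgeR's quasi-likelihood test with batch in the model, no gene of the 16117 tested passed an adjusted p of 0.05 (0%), and 2486 had an unadjusted p below 0.05 (15.4%), 4 of the 8 members among them. By DESeq2 with batch, the kind of fit behind the authors' deposited table, 244 genes passed (1.82%, with 1.34% higher), and CD200 and CD47, both higher, were the 2 of 7 members with an adjusted p that passed. The members were chosen from this contrast, so nothing is read from these counts.

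The PD-1 ligands showed the same order of groups in batches 2 and 3. CD274 stood at 31, 21.4 and 48.2 CPM in HIV-1+LTA libraries, 29.8, 32.6 and 61.2 CPM in HIV-1 libraries and 29.8, 36.4 and 68.7 CPM in PBS libraries. The groups overlapped, with batch 3 high in each, and the HIV-1+LTA library was the lowest of its batch in batches 2 and 3 and the highest by a small margin in batch 1. The within-batch difference from HIV-1 alone was 0.06, -0.6 and -0.35 on the log2 CPM scale, and that from PBS was 0.06, -0.76 and -0.51. The edgeR log2 fold change against HIV-1 was -0.29 (SE 0.119, adjusted p = 0.287). A lower CPM in these bulk libraries can mean fewer expressing cells or less RNA per cell, which cannot be told apart.

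PDCD1LG2 stood at 14.6, 13.5 and 22.5 CPM in HIV-1+LTA libraries, 13.4, 15 and 30.3 CPM in HIV-1 libraries and 15.5, 18.2 and 33 CPM in PBS libraries. Batch 3 was high in every group, and the HIV-1+LTA library was below its PBS partner in all 3 batches. The difference from PBS was -0.09, -0.42 and -0.55 on the log2 CPM scale within batches. Against HIV-1 the differences were 0.12, -0.15 and -0.43, with a log2 fold change of -0.15 (SE 0.0952, edgeR adjusted p = 0.463).

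Of the ligands shared by TIGIT and CD226, PVR differed with LTA in batches 2 and 3 and NECTIN2 differed little in any batch. PVR stood at 118, 81 and 124 CPM in HIV-1+LTA libraries, 115, 119 and 209 CPM in HIV-1 libraries and 115, 116 and 197 CPM in PBS libraries. The 3 libraries of batch 1 were nearly level, and in batches 2 and 3 the HIV-1+LTA library was the lowest. With LTA, PVR differed from the virus alone by 0.04, -0.56 and -0.75 log2 CPM within batches, a log2 fold change of -0.42 (SE 0.119, edgeR adjusted p = 0.194). NECTIN2 stood at 58.9, 60.2 and 40.4 CPM in HIV-1+LTA libraries, 57.8, 61.2 and 37.1 CPM in HIV-1 libraries and 55.1, 62.7 and 34.1 CPM in PBS libraries. Its largest within-batch difference, in batch 3 between HIV-1+LTA and PBS, was 0.24, and its groups overlapped.

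CD276 (B7-H3), a B7 family member abundant on mesenchymal cells, was level across groups, at 45.3, 42.7 and 40.5 CPM in HIV-1+LTA libraries, 46.8, 46 and 37.6 CPM in HIV-1 libraries and 43.7, 44.8 and 37.5 CPM in PBS libraries. Its within-batch differences lay between -0.11 and 0.11 in all comparisons.

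CD47 stood at 67.2, 76.1 and 71 CPM in HIV-1+LTA libraries, 63.3, 56.1 and 58.6 CPM in HIV-1 libraries and 68.2, 60.2 and 66.4 CPM in PBS libraries. The HIV-1+LTA and HIV-1 libraries did not overlap, a pattern that 4.37% of tested genes showed, while the HIV-1+LTA and PBS libraries overlapped. Against HIV-1 the within-batch differences were 0.09, 0.44 and 0.28, and the log2 fold change was 0.27 by both tools (edgeR SE 0.0689, adjusted p = 0.171; DESeq2 adjusted p = 0.0385). The DESeq2 call held in 2 of 9 fits that left out a library, those without HIV-1+LTA replicate 1 or HIV-1 replicate 1, and the fold change was 0.17 without HIV-1+LTA replicate 2. Against PBS the differences were -0.02, 0.34 and 0.1.

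CD200 stood at 4.73, 6.58 and 4.76 CPM in HIV-1+LTA libraries, 4.36, 2.48 and 2.46 CPM in HIV-1 libraries and 4.9, 2.61 and 2.42 CPM in PBS libraries. In batches 2 and 3 the HIV-1+LTA library was the highest by a wide margin, while the 3 libraries of batch 1 were similar and all above the batch 2 and 3 libraries without LTA. CD200 differed with LTA by 0.12, 1.39 and 0.95 log2 CPM from the virus alone, and by -0.05, 1.33 and 0.97 from PBS. The log2 fold change against HIV-1 was 0.85 by edgeR (SE 0.229, adjusted p = 0.186) and 0.86 by DESeq2 (SE 0.226, adjusted p = 0.0156). The DESeq2 call held in 5 of 9 fits that left out a library and was lost without replicate 2 or 3 of HIV-1+LTA or of HIV-1; without HIV-1+LTA replicate 2 the fold change was 0.54.

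LGALS9, a galectin that binds TIM-3 on T cells, had 15, 36 and 36 counts in HIV-1+LTA libraries, 10, 10 and 30 counts in HIV-1 libraries and 22, 3 and 29 counts in PBS libraries, and its groups overlapped. These correspond to 0.223, 0.507 and 0.742 CPM in HIV-1+LTA libraries, 0.175, 0.167 and 0.519 CPM in HIV-1 libraries and 0.235, 0.037 and 0.58 CPM in PBS libraries. The difference from HIV-1 alone was 0.3, 1.45 and 0.49 on the log2 CPM scale, and the log2 fold change was 0.89 (SE 0.534, edgeR adjusted p = 0.45). It did not pass, the within-batch values were unequal, and the batch 2 value against PBS, 2.99, rests on a library with 3 counts.

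**Figure D2:**
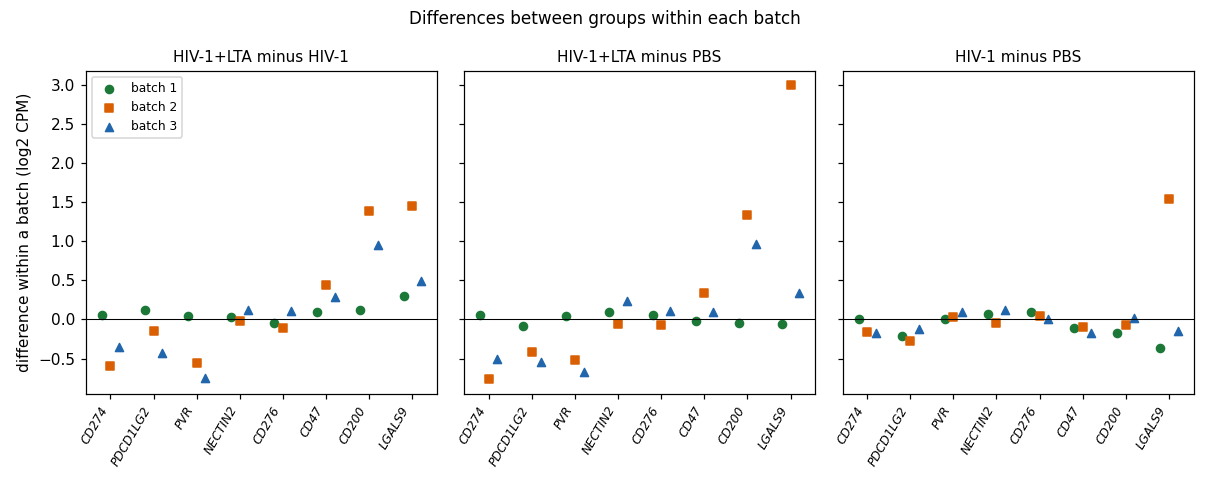
Difference in log2 CPM between groups within batch 1 (circles), batch 2 (squares) and batch 3 (triangles) for each member (x axis), with 1 panel per pair of groups, the LTA pairs first. Batch 1 lies near 0 in the LTA panels for CD274, PVR and CD200, where batches 2 and 3 lie from -0.76 to 1.39.

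The batches differed in the size of the LTA difference over all genes too. The median absolute difference between HIV-1+LTA and HIV-1 over 16117 genes was 0.072 log2 CPM in batch 1, 0.179 in batch 2 and 0.156 in batch 3. Against PBS it was 0.0718, 0.169 and 0.181. Between HIV-1+LTA and HIV-1, 16%, 30.9% and 27.7% of these genes differed by more than 0.3 in either direction in batches 1, 2 and 3. CD200, CD47 and LGALS9 were higher with LTA than with HIV-1 alone in 3 of 3 batches, 3 of 8 members, against 16.7% of all tested genes. No member was lower in 3 of 3 batches, against 17.1%. Without the HIV-1+LTA library of batch 1, edgeR called 2390 genes against HIV-1 (14.6% of those tested) and 2648 against PBS (16.2%), and in both comparisons CD274, PDCD1LG2, CD47, CD200 and PVR were 5 members among them. The log2 fold change against HIV-1 was then 1.22 for CD200 and -0.65 for PVR by edgeR. Without all of batch 1 edgeR called 9.69% and 10.7% of genes against HIV-1 and PBS, and CD274, CD200 and PVR were among them in both. With no filter on low counts edgeR called 4.02% and 4.14%, again with these 3 members in both. The members were chosen from these same differences, so nothing is read from their place among the genes called.

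Of the cell type markers, DESeq2 called CD14 against HIV-1 and VIM in both LTA comparisons, and edgeR called none. By DESeq2 1.82% of all genes passed against HIV-1 and 1.93% against PBS. Of 9 tested leukocyte genes, 8 had a log2 fold change above 0 against HIV-1 and 4 against PBS. Among the 8, CD68 and CD8A were level against HIV-1, at 0 and 0.01 after rounding. The gene below 0 against HIV-1, FCER1G, had the largest difference of the 9, -1 (SE 0.475, edgeR adjusted p = 0.342). It averaged 0.297 CPM. CD14, a co-receptor for bacterial products, was higher against HIV-1 by DESeq2 (0.56, SE 0.165, adjusted p = 0.0445; edgeR adjusted p = 0.186), by 0.43, 0.74 and 0.46 log2 CPM within batches, and did not pass against PBS (0.44, DESeq2 adjusted p = 0.12). ITGAX had a log2 fold change of 0.65 and CD4 of 0.33 against HIV-1, and neither passed (edgeR adjusted p = 0.194 and 0.266). Of 7 tested stellate and myofibroblast markers, 4 lay above 0 and 3 below 0 in each LTA comparison. VIM (vimentin) was lower by DESeq2 with a log2 fold change of -0.31 in both (adjusted p = 0.0199 against HIV-1 and 0.0276 against PBS), and edgeR called none. COL3A1, TAGLN and ACTA2 had larger differences and passed by neither tool. Their edgeR log2 fold changes were 0.61, -0.52 and -0.37 against HIV-1, and 0.51, -0.66 and -0.78 against PBS. The 10 genes of the stellate list summed to 3190 to 5440 CPM in HIV-1+LTA libraries, 3500 to 6470 CPM in HIV-1 libraries and 3050 to 6890 CPM in PBS libraries. The part of these markers in the members' differences was not tested.

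The next pair sets virus with LTA beside PBS, and shares its HIV-1+LTA libraries with the comparison above. CD274 and PDCD1LG2 were lower and CD200 higher by DESeq2 with batch, 3 of 7 members, where 236 of 12239 genes passed (1.93%; 0.964% higher and 0.964% lower). The DESeq2 log2 fold change was -0.41 for CD274 (SE 0.114, adjusted p = 0.0336), -0.36 for PDCD1LG2 (SE 0.105, adjusted p = 0.0413) and 0.77 for CD200 (SE 0.224, adjusted p = 0.0415). Each call held in 2 of 9 fits that left out a library, those without HIV-1+LTA replicate 1 or PBS replicate 1. Over these 9 fits the log2 fold changes ran from -0.62 to -0.25 for CD274, -0.5 to -0.24 for PDCD1LG2 and 0.45 to 1.13 for CD200. The authors' deposited table, whose comparison is not named and whose fold changes match this one, holds the same values for these 3 genes. By edgeR no gene passed (0%; 2709 genes, 16.8%, had an unadjusted p below 0.05, 4 members among them), with adjusted p = 0.205 for each of the 3. PVR had a log2 fold change of -0.37 (SE 0.119, edgeR adjusted p = 0.207) and -0.38 (SE 0.186) by DESeq2. The median edgeR log2 fold change of the members was 0.06, beside 0 over all genes. None of the members had non-overlapping groups here, against 3.82% of genes. PDCD1LG2 was the member lower in 3 of 3 batches, against 16.3% of genes.

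HIV-1 against PBS addresses the virus alone. The edgeR log2 fold changes of the members other than LGALS9 ran from -0.2 (PDCD1LG2, SE 0.0937) to 0.05 (CD276, SE 0.0572, and NECTIN2, SE 0.0598). That of LGALS9 was 0.1 with an SE of 0.557 and ran from -0.47 to 0.52 when 1 library was left out, so its direction was not determined. No gene passed by edgeR (0%, with 678 genes, 4.21%, and 0 members at an unadjusted p below 0.05), and by DESeq2 3 of 19990 genes passed (0.015%) and 0 members. Within batches, PDCD1LG2 differed by -0.21, -0.28 and -0.12 and CD47 by -0.11, -0.1 and -0.18, both lower in 3 of 3 batches, against 16.9% of genes. PVR and CD276 were higher in 3 of 3 batches before rounding, by 0, 0.03 and 0.09 and by 0.1, 0.04 and 0, against 16.3% of genes. No member had non-overlapping groups, against 2.74%. CD200 differed by -0.17, -0.07 and 0.02 and LGALS9 by -0.37, 1.54 and -0.15. The p-values do not show that the virus left these genes unaltered, since differences well above their standard errors could also go uncalled. In HIV-1+LTA against HIV-1, PVR at -0.42 (SE 0.119, edgeR adjusted p = 0.194) was not called.

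The rule that chose the members compared libraries within replicate number and did not use differences between batches. The difference between batch 3 and the mean of batches 1 and 2 was therefore tested, with group in the model. Members were chosen with earlier results of these data known, so the test may not be fully separate from the choice. Batch 3 also stood apart over all genes in these same libraries, so low p-values were common in this contrast. It sets 1 batch against 2, and its p-values measure the spread between libraries, not between batches. Of the members 6 differed: 4 were higher in batch 3 and 2 lower, where 71.2% of all tested genes were called (35.2% higher, 36% lower), so a share of 6 of 8 is near the background. CD274 was 0.97 higher on the log2 scale (SE 0.0989, edgeR adjusted p = 2.75e-06) and PDCD1LG2 0.92 higher (SE 0.0793, adjusted p = 6.31e-07). PVR was 0.65 higher (SE 0.101, adjusted p = 9.76e-05) and LGALS9 1.52 higher (SE 0.439, adjusted p = 0.00826). The PVR value covers unlike groups. Batch 3 stood at 209 CPM with HIV-1 and 197 CPM with PBS, where the other batches reached 119 and 116 CPM. With HIV-1+LTA the batch 3 library stood at 124 CPM, beside 118 CPM in batch 1 and 81 CPM in batch 2. NECTIN2 had a log2 fold change of -0.67 (SE 0.0537, adjusted p = 3.11e-07) and CD276 of -0.22 (SE 0.0503, adjusted p = 0.00192). Each of the 3 CD274 libraries of batch 3, at 48.2, 61.2 and 68.7 CPM, was above all 6 others, which reached 36.4 CPM. CD47 did not pass, with a log2 fold change of 0 (SE 0.0596, adjusted p = 0.973), and neither did CD200 by edgeR, at -0.43 (SE 0.203, adjusted p = 0.0755; DESeq2 adjusted p = 0.0474, which called 56.8% of genes). Of the 8 members 6 had batch 3 libraries that did not overlap the others, against 60.8% of genes. Of 7 tested stellate and myofibroblast markers, edgeR called 3 higher in batch 3, COL1A2 (log2 fold change 3.01), VIM (2.03) and TAGLN (0.99), and 3 lower, COL3A1 (-1.46), COL1A1 (-0.4) and PDGFRB (-0.26). Of 9 leukocyte genes 1 was called higher and 5 lower, with CD4 at -3.03 and CD14 at -1.18. The part of these markers in the members' differences was not tested. LGALS9 no longer passed without PBS replicate 3.

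**Figure D3:**
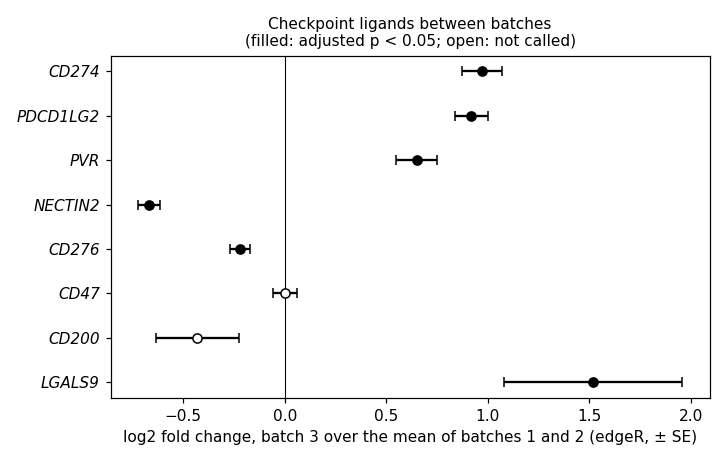
Log2 fold change with SE (x axis) of each member (y axis) in batch 3 over the mean of batches 1 and 2, from edgeR with group in the model, over all 9 libraries. Filled points passed an adjusted p of 0.05: CD274, PDCD1LG2, PVR and LGALS9 above 0, NECTIN2 and CD276 below 0; open points are CD47 and CD200.

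Lists of related genes give the setting. Of 20 interferon-stimulated genes, edgeR called none with LTA, and DESeq2 called 3 of the 19 given an adjusted p higher against HIV-1. They were PSMB9 (an immunoproteasome subunit; log2 fold change 0.66, SE 0.137), IFI6 (0.49, SE 0.137) and IFIT3 (0.34, SE 0.101). Of the 20, 19 had a log2 fold change above 0, with a median of 0.3 beside 0 over all genes. Against PBS DESeq2 called 5 of 18 higher, PSMB9 (0.72), OAS3 (0.39), IFIT3 (0.41) and ISG15 (0.49), with OAS2 (0.71) as the fifth, which was named after its value was seen. By batch, IFI6 differed by -0.07, 0.77 and 0.74 and IFIT3 by 0.02, 0.54 and 0.44 log2 CPM with LTA from the virus alone.

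Among 28 regulators of PD-L1, none was called in either LTA comparison by either tool, and the medians were 0.04 and 0.03 against HIV-1 and PBS. HIF1A, a transcription factor of the PD-L1 gene, had log2 fold changes of 0.1 (SE 0.0562) and 0.06 (SE 0.0561). CMTM6, which stabilises PD-L1 protein at the surface, had 0.04 (SE 0.0515) and -0.03 (SE 0.0515). Of 15 tested other B7, nectin and TNF-family checkpoint genes, none was called and 12 were above 0 in each LTA comparison, with medians of 0.21 and 0.22. TNFSF4 (OX40 ligand) had -0.08 (SE 0.0827) and -0.15 (SE 0.082), and NECTIN1 0.05 (SE 0.0881) and 0.22 (SE 0.0878). CD80 averaged 0.0501 CPM, and CD86 and HHLA2 had no counts.

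None of the 9 tested ligands of NK cell receptors was called, with medians of -0.06 against HIV-1 and 0.02 against PBS. MICB had -0.07 (SE 0.0549) and -0.05 (SE 0.0547), and ULBP2 -0.23 (SE 0.069) and -0.17 (SE 0.0688). Among 14 tested other inhibitory molecules, CD24, which signals through SIGLEC10, was called higher against HIV-1 by DESeq2 (0.4, SE 0.0986, adjusted p = 0.00947) and none against PBS. HMGB1 and THBS1, the most abundant of them, had -0.09 (SE 0.0613) and -0.45 (SE 0.131) against PBS. Of the 6 genes that process or bind CD47, none was called against HIV-1. CALR, an eat-me signal opposed by CD47, had 0.03 (SE 0.0531), and THBS2, a thrombospondin, 0.27 (SE 0.0869). ITGB3, an integrin subunit that associates with CD47, was lower against PBS by DESeq2 (-0.37, SE 0.1, adjusted p = 0.0275).

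Receptors of these ligands and some other immune receptors were mostly near 0. PDCD1 had no counts. The list of 14 receptor genes also held CD28, CTLA4, LAG3 and BTLA, which are receptors of other ligands. Of the 14 genes 13 had counts and 5 were tested, LAG3 and BTLA among them, and none was called between treatments. SIRPA averaged 68.8 CPM with a log2 fold change of 0.01 (SE 0.0519) against HIV-1, and CD226 averaged 2.44 CPM with 0.1 (SE 0.166).

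**Figure D4:**
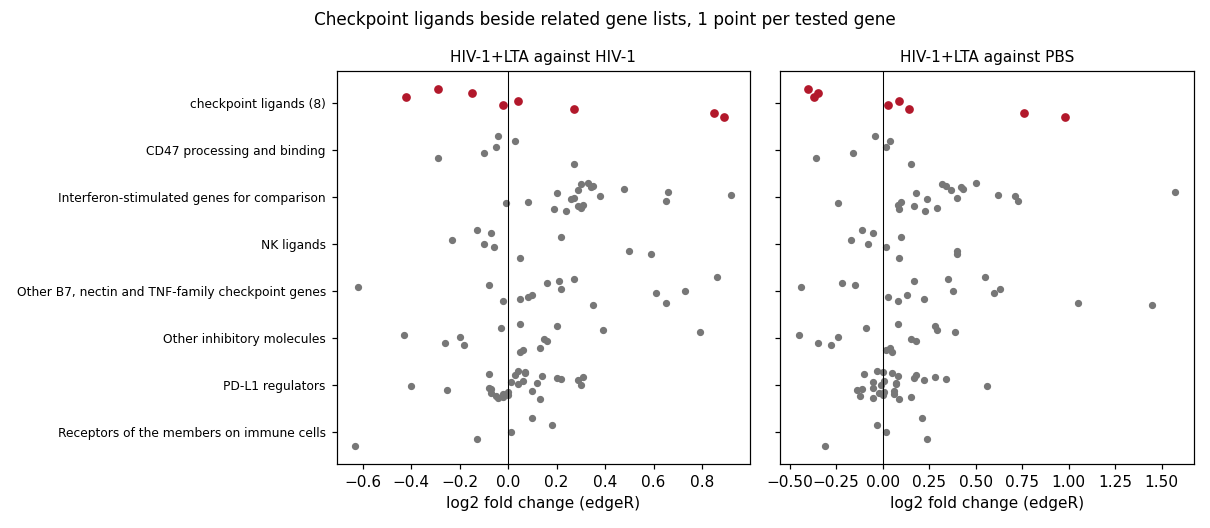
edgeR log2 fold changes (x axis) of the 8 checkpoint ligands (red) and of related gene lists (grey, 1 point per tested gene) in the 2 LTA comparisons, against HIV-1 at left and PBS at right. Of the 20 interferon-stimulated genes 19 lie above 0 in each panel, while the ligands lie on both sides of 0.

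The profile of CD200 over the 9 libraries, with batch means removed, was compared with 9318 other genes averaging at least 10 CPM. Likeness was the root mean square difference in batch-centred log2 CPM, and it is a description. BMF, a pro-apoptotic BCL2 family member, was nearest at 0.0794, followed by the complement proteases C1S (0.0875) and C1R (0.1). LGALS9 was nearest to C1S (0.466), the pro-apoptotic BCL2L11 (0.484) and PLEKHA4 (0.506), all larger than those of CD200. The range behind its profile, 2.99, includes the library with 3 counts. CD274 stood 0.114 from PVR, which ranked 251 among 9318 genes, and 0.125 from PDCD1LG2, at rank 349.

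The genes around CD274 were chosen after values were seen. Besides PDCD1LG2, 7 tested genes start within 500 kb of it, and in HIV-1+LTA against PBS their edgeR log2 fold changes lay on both sides of 0, beside -0.4 for CD274 and -0.35 for PDCD1LG2. They were -0.15 for RIC1 (SE 0.0675), -0.11 for PLGRKT (SE 0.0969), -0.1 for JAK2 (SE 0.061) and -0.07 for RLN1 (SE 0.499). ERMP1 had 0.05 (SE 0.0612), MLANA 0.14 (SE 0.251) and RLN2 0.16 (SE 0.389). None of the 7 passed by edgeR, nor by DESeq2 where it gave an adjusted p. Of 166 peaks deposited from ChIP-seq of cells given the virus, the nearest to a member's start was at chr19:45601259-45601523, 252 kb from NECTIN2 and 454 kb from PVR, and the other members had none within 500 kb. The antibody and control of the ChIP are not given in the sources used here, and the ChIP library is labelled Lx5 as its cell line but Lx2 in its title, so what a peak marks is not known here.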

How the data were processed

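The 9 RNA-seq libraries of LX-2 cells were analysed, 3 per treatment. Per the submitters' processing notes the tools were fastp, STAR, SAMtools, HTSeq, Bowtie2, bedtools and deepTools on hg19; roles, versions and strand setting are not given in the sources used here. Raw counts by gene symbol were deposited. Their deposited DESeq2 table holds a mean signal (normalised counts), log2 fold changes with SE, a Wald score, p-values and adjusted p-values, and names no comparison; a DESeq2 fit of batch and group for HIV-1+LTA against PBS gave all 19990 log2 fold changes within 0.01. The deposited peak list gives positions and peak names, and the names were read as those of the cells given the virus.

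The test was edgeR 4.0.16 quasi-likelihood (glmQLFit, glmQLFTest; R 4.3.3) on counts, TMM scaling, filterByExpr (16117 of 35303 genes), batch and group in 1 fit over 9 libraries, Benjamini-Hochberg adjustment, threshold 0.05; its SE is the log2 fold change over the root of F. DESeq2 1.42.0 used genes with 10 or more counts in all; an NA adjusted p stayed NA. limma-voom (limma 3.58.1) was an alternative, with others in the closing section. Log2 CPM had a prior count of 2. Replicates are numbered by batch in the labels, which pairs libraries: same-batch deviations correlated at 0.705 to 0.917 over 9 pairs, beside -0.835 to 0.764 for pairs of another batch and group. Pairs across batches 1 and 2 (0.684 to 0.764) overlapped pairs within them (0.705 to 0.784), so by this measure batch 3 alone stood apart. No pair of libraries agreed within sampling noise. Scripts were tested on simulated data.

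Members and lists were chosen with earlier results of these data known. Named from each gene list, for the LTA comparisons, were genes called by edgeR or DESeq2 with batch (at most 4 a comparison), or the 2 most abundant where none was called; cell type markers were outside this rule and were named after their values were seen; and 3 genes nearest in profile to the 2 members of widest range. The match of 1 other promoter motif is not reported here.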

Additional observations from a re-analysis of the deposited data

How the results depend on the processing

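The counts of genes called with LTA depended on the tool and on batch 1. In order HIV-1+LTA against HIV-1, HIV-1+LTA against PBS and HIV-1 against PBS, edgeR with batch called 0, 0 and 0 genes, DESeq2 with the replicate block 244, 236 and 3, DESeq2 with no replicate block 1, 0 and 1, and edgeR with no filter on low counts 1016, 1045 and 30; the cause was not tested. edgeR with no replicate block, limma-voom and RLE scaling called 0 in each. With 1 library or 1 batch left out, the counts ran from 0 to 2390, 0 to 2648 and 0 to 46 over both tools; the DESeq2 ones were chosen after seeing the data. Without batch 1, edgeR called 1567 and 1733 genes with LTA (9.69% and 10.7%), CD274, CD200 and PVR among them in both; without batch 2 both tools called 0, and without batch 3 edgeR called 0 and 0 and DESeq2 1 and 1. By DESeq2, CD200 against HIV-1 stayed called in 5 of 9 fits that left out a library, CD47 in 2 of 9, and CD274, PDCD1LG2 and CD200 against PBS in 2 of 9 each. Genes called between batch 3 and batches 1 and 2 ran from 10282 to 11757 and members from 5 to 7 (LGALS9 lost without PBS replicate 3). Of the members' fold changes between batches, 122 kept their call, 5 passed in addition (CD200) and 1 no longer passed (LGALS9). Of those between treatments, taken as values with no test, 692 moved within the spread between batches and 28 by more; over 30 alternatives a comparison, members passed 30 times with LTA against HIV-1 (13 by edgeR, 17 by DESeq2), 29 times against PBS (13 and 16) and 0 times in HIV-1 against PBS. The members were chosen from the treatment differences, so nothing is read from these passes. No called value changed direction. In 25 settings an uncalled fold change near 0 changed sign, all of CD276 or NECTIN2 with LTA and of CD200, LGALS9, NECTIN2 or PVR in HIV-1 against PBS. A prior count of 0.5 moved a library's log2 CPM by at most 0.599 and raw library sizes by at most 0.153. Depth was lowest for LGALS9, at 3 to 36 counts a library, and its part in the spread was not tested.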
